A study of Mus musculus with 60 samples.

Results

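The genes described here encode the collagens, laminins and linkers of the basement membrane, measured by bulk RNA sequencing in mouse cancer-associated fibroblasts (CAFs, the activated fibroblasts of tumours; the labels write tCAFs). The 10 members, of 48440 genes listed, were taken by gene symbol: Col4a1, Col4a2, Col15a1, Col18a1, Lama4, Lamb1, Lamc1, Nid1, Nid2 and Hspg2. All 10 passed the filter on low counts in each of the 3 count tables. The CAFs were kept without cancer cells or with 1 of 2 mouse lung adenocarcinoma lines, 393P or 344SQ. Of these, 344SQ forms metastases in mice and 393P seldom does.

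The study used 3 sets of samples. In multicellular aggregates, where the cell types touch, CAFs alone, with 393P or with 344SQ had 3 replicates per group. In a second set of aggregates the 344SQ partners bore either a control shRNA (shCTL) or one targeting Zeb1 (shZEB1), again in 3 replicates per group. In Boyden chambers, where a membrane separates the CAFs from the cancer cells, CAFs alone, with 393P and with 344SQ had 5 biological replicates each, every one sequenced as 3 technical libraries that were summed here. CAFs were sorted by flow cytometry before lysis in all groups. Sample titles name the aggregates of CAFs alone CAF-GFP, and the other titles do not name GFP. The labels give no mouse strain, isolate, culture time or shRNA sequence, and nothing says that replicates came from separate isolates, so p-values measure the spread between these samples, which may be technical. The shRNA acts in the cancer cells, so its target cannot be checked in libraries of sorted CAFs.

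A basement membrane is a thin sheet of matrix that underlies epithelium and endothelium and wraps muscle, fat and mural cells. Laminins, each a trimer of an alpha, a beta and a gamma chain, form a network at the cell surface, and collagen IV, most often a trimer of alpha-1 (Col4a1) and alpha-2 (Col4a2) chains, forms the covalent network that gives the sheet its strength. Nidogens and the heparan sulfate proteoglycan perlecan (Hspg2) bridge these networks. Collagens XV and XVIII (Col15a1, Col18a1) are proteoglycan collagens at the outer face of basement membranes, and the C-terminal fragment of collagen XVIII is endostatin. Fibroblasts are a main source of several of these proteins.

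Promoter sequence is shown for Col15a1, which had the largest fold change, and for Col4a1 and Col4a2, which share a region. Col4a1 (ENSMUSG00000031502.11, chromosome 8, 11198423 to 11312826, minus strand) and Col4a2 (ENSMUSG00000031503.13, chromosome 8, 11312805 to 11449287, plus strand) lie head to head, and their first exons overlap by 22 bases in the GENCODE annotation of GRCm38 (mm10). The RefSeq table (GRCm38.p6) gave 300-base promoters, 250 bases before to 50 after the start, for 7 of the 10 members. Lama4, Lamc1 and Nid2 had no entry. The 30 bases shown for this pair hold the CCAAT box (capitals) of the Col4a2 window, at chr8:11312761-11312790 on the plus strand. Its middle base lies 30 bases before the annotated Col4a2 start and 52 bases inside the longest Col4a1 transcript. It is shown because it lies upstream of one gene and within the other. The Col15a1 stretch is the 250 bases before its RefSeq start, chr4:47207762-47208011 on the plus strand, shown because this gene had the largest fold change, with its CpG dinucleotides in capitals.
Col4a1-Col4a2 CCAAT box: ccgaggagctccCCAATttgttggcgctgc
Col15a1 upstream: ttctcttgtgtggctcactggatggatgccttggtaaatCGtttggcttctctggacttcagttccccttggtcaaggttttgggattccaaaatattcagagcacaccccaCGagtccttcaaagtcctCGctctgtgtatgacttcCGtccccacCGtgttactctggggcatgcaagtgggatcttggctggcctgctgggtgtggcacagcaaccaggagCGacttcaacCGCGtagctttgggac
Both windows of the collagen IV pair were rich in GC, with 74.0% and 37 CpG for Col4a1 and 73.7% and 33 CpG for Col4a2, against a median of 52.7% and 7 CpG over 32851 promoters. Col15a1 had 52.3% GC and 8 CpG, near that median. The windows of the other members with an entry were also above the median in GC. They had 70.3% and 27 CpG for Hspg2, 64.7% and 20 for Nid1 and 63.7% and 18 for Lamb1. For Col18a1, separate entries had 63.3% and 16 CpG, and 59.7% and 6 CpG. Of 6 short motifs searched on both strands, the CCAAT box (CCAAT) was in 37.4% of all promoters and the GC box (GGGCGG) in 35.7%. The others were the TATA box (TATAAA) in 13.6%, an AP-1 site (TGANTCA) in 7.81%, an RBPJ site (TGGGAA) in 25.6% and a TEAD site (GGAATG) in 14.7%; no 2 of these words are the same, but matches may overlap. The Col4a1 window held 1 CCAAT box and 1 GC box, and the Col4a2 window held 1 CCAAT box and 3 GC boxes. The Col15a1 window held none of the 6 words, which says only that these letters are not in it.

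Library totals were 757717 to 1258751 counts in the aggregates, 739530 to 2144803 in the shRNA set and 4182944 to 8542262 in the Boyden sums. Mitochondrial genes took 19% to 24.3%, 23.5% to 40.8% and 10.8% to 15% of the counts of these sets, and rRNA-like genes 18.9% to 24.9%, 18.1% to 25.8% and 0.284% to 0.497%. The typical spread between replicates beyond counting error (biological coefficient of variation) was 16.2%, 61.7% and 8.58%. Fibroblast markers were high in every library, from 1632 to 9403 summed CPM (counts scaled to a common library size) over the 12 genes of the list, with Lum at 0 in the aggregates of CAFs alone and with 393P. Levels below are CPM after TMM scaling (trimmed mean of M values) over the genes tested, and a gene was called changed where edgeR's quasi-likelihood test gave an adjusted p under 0.05 over all genes tested. In bulk samples, fewer cells of a type and less RNA per cell cannot be told apart.

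In aggregates with 393P cells, Col4a1, Col4a2, Col15a1 and Col18a1 rose and nidogen-1 fell, while Lamb1, Lamc1, Nid2 and perlecan did not pass the test. Col15a1 rose 9.50-fold, Col18a1 4.86-fold, Col4a1 3.74-fold, Col4a2 2.48-fold and the laminin alpha-4 gene Lama4 1.93-fold, and Nid1 was 1.81-fold lower. These 6 of 10 members compare with 10.7% of 7992 genes called. The median log2 change was 0.60 over the members and -0.0023 over all genes tested. For the same 6 members no value of one group fell within the range of the other, against 26% of all genes.

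**Figure D1:**
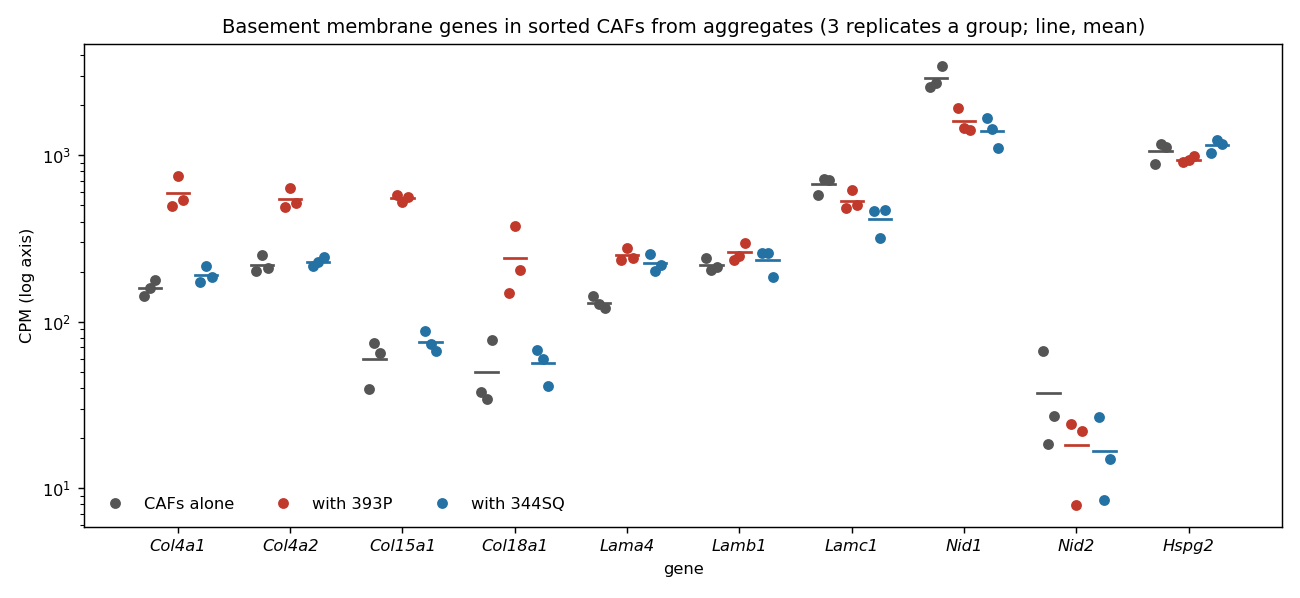
TMM-scaled CPM (log axis) of the 10 genes in every aggregate library, 3 replicates per group, with a line at the group mean. The 393P points of Col4a1, Col4a2, Col15a1 and Col18a1 lie above all points of the other groups, and the Nid1 points of CAFs alone lie above those of both co-cultures.

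Among the collagen IV chains, Col4a1 stood at 143, 160 and 178 CPM in CAFs alone and at 495, 755 and 541 CPM with 393P. Its log2 change was 1.90 ± 0.17 (SE, n = 3 per group), with an adjusted p of 2.88e-09. The partner chain Col4a2 stood at 202, 251 and 209 CPM alone and at 488, 633 and 515 CPM with 393P, a log2 change of 1.31 ± 0.16 (adjusted p = 3.99e-07). For both chains every co-culture library was above every library of CAFs alone. The strand setting of the counting is not given in the sources used here, so reads from the 22 shared exon bases may be counted for either gene.

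The proteoglycan collagens had the largest fold changes of the 10 genes. Col15a1 (ENSMUSG00000028339.17, chromosome 4, 47208161 to 47313167) had 39.6, 74.0 and 64.8 CPM in CAFs alone and 575, 526 and 565 CPM with 393P. The lowest 393P library was thus far above the highest control, and the log2 change was 3.25 ± 0.19 (adjusted p = 9.94e-13). Col18a1 (ENSMUSG00000001435.14, chromosome 10, 77052178 to 77166548) had 37.9, 34.4 and 77.4 CPM alone and 149, 373 and 206 CPM with 393P. It varied more between replicates in both groups, with a log2 change of 2.28 ± 0.28 (adjusted p = 6.25e-07).

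Of the 3 laminin members, Lama4 rose, and Lamb1 and Lamc1 did not pass the test. Lama4 (chromosome 10, 38965515 to 39110188), the alpha chain of laminins in vessel walls, muscle and fat, had 143, 127 and 120 CPM in CAFs alone and 235, 278 and 242 CPM with 393P. Its log2 change was 0.95 ± 0.16 (adjusted p = 9.26e-05), and the groups did not overlap. The beta chain gene Lamb1 (chromosome 12, 31265234 to 31329644) differed by 0.24 ± 0.16 and the gamma chain gene Lamc1 (chromosome 1, 153218922 to 153332786) by -0.32 ± 0.17, with adjusted p of 0.440 and 0.264.

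The linkers went the other way or did not pass the test. Nid1 (ENSMUSG00000005397.7, chromosome 13, 13437551 to 13512269), the nidogen that ties laminin to collagen IV, had 2569, 2715 and 3445 CPM in CAFs alone and 1919, 1465 and 1427 CPM with 393P. The log2 change was -0.86 ± 0.17 (adjusted p = 0.000804), and each co-culture library was below each control. Nid2 (chromosome 14, 19751265 to 19811787), its paralogue, was low, with 66.3, 18.5 and 27.2 CPM alone and 24.4, 7.93 and 21.9 CPM with 393P. It overlapped between groups, with a log2 difference of -1.13 ± 0.41 (adjusted p = 0.0813); it was -0.39 (adjusted p = 0.714) without replicate 1 of CAFs alone, the highest library, and -1.42 (adjusted p = 0.0217) without replicate 2. Hspg2 (chromosome 4, 137468769 to 137570630) differed by -0.17 ± 0.15 (adjusted p = 0.591). The exons of Nid2 overlap 437 bases of Rtraf and those of Nid1 143 bases of Gm48682 on the other strand, so these counts may hold reads of those genes.

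Some markers of other cell types rose with the collagens in these libraries, and so did the sum of the fibroblast markers. The 12 fibroblast markers summed to 7431 to 8982 CPM with 393P and 4113 to 6582 CPM in CAFs alone. Of 11 tested, 4 were called higher and 2 lower, against 10.7% of all genes called. Of 12 endothelial markers, Flt1, a receptor for vascular endothelial growth factor, made up 97.8% to 98.8% of the summed level with 393P; the sum was 336 to 524 CPM there, 38.8 to 62.7 CPM in CAFs alone and 35.2 to 103.9 CPM with 344SQ. The rest of the list summed to 4.69 to 7.31 CPM with 393P and 1.32 to 6.27 CPM in CAFs alone, and 6 of the 12 markers (Cdh5, Cldn5, Egfl7, Kdr, Tek and Tie1) had no count in any of the 3 libraries with 393P, against 5 of 12 in CAFs alone. The 9 pericyte or smooth muscle markers summed to 185 to 305 CPM with 393P and 23.8 to 35.5 CPM in CAFs alone. Notch3 led both sums, at 129 to 162 CPM and 15.9 to 20.9 CPM. The rest of this list summed to 38.7 to 144 CPM and 7.93 to 14.6 CPM. Of the 9, 2 (Higd1b and Kcnj8) had no count with 393P, against 3 in CAFs alone. The 9 leukocyte markers summed to 7.51 to 29.3 CPM with 393P and 27.2 to 41.4 CPM in CAFs alone, and the 1 tested was called lower (log2 change -1.51). The 16 carcinoma or epithelial markers summed to 20.6, 31.7 and 99.3 CPM with 393P and 7.32 to 11.9 CPM in CAFs alone. The part of endothelial, pericyte and carcinoma RNA in the changes was not tested. Without the 393P replicate of 99.3 CPM, 6 members were again called. The log2 changes of the collagens were then 3.24 for Col15a1, 2.39 for Col18a1, 1.97 for Col4a1 and 1.36 for Col4a2. The remaining 393P libraries still had 20.6 and 31.7 CPM of carcinoma markers, above all CAFs alone, so the part of carcinoma RNA stayed untested.

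With 344SQ in aggregates Col4a1, Col4a2, Col15a1 and Col18a1 did not pass the test, and the members called were Lama4, Lamc1 and Nid1. Of 10 members, Lama4 rose 1.73-fold, Nid1 was 2.08-fold lower and Lamc1 was 1.60-fold lower, against 5.84% of all genes called in this comparison. The ranges of these 3 members were separate from those of CAFs alone, against 21.5% of all genes. The median log2 change was 0.10 over the members and -0.0067 over all genes. This comparison uses the same libraries of CAFs alone as the one with 393P, so their values are not independent.

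Lama4 had 256, 201 and 219 CPM with 344SQ, all above the 120 to 143 CPM of CAFs alone, a log2 change of 0.79 ± 0.16 (adjusted p = 0.00192). Nid1 had 1670, 1435 and 1101 CPM with 344SQ, all below the controls, and changed by -1.05 ± 0.18 (adjusted p = 0.000138). Lamc1, the gamma-1 chain found in most laminins, had 578, 719 and 708 CPM alone and 462, 318 and 469 CPM with 344SQ. Its change of -0.68 ± 0.17 (adjusted p = 0.0102) lost its call without replicate 2 or replicate 3 of CAFs alone (adjusted p = 0.0513 and 0.0592) and without replicate 2 of 344SQ (adjusted p = 0.0935). Col4a1 (log2 difference 0.26 ± 0.18), Col4a2 (0.06 ± 0.16), Col15a1 (0.38 ± 0.21) and Col18a1 (0.15 ± 0.32) were not called, and neither were Lamb1 (0.08 ± 0.17), Nid2 (-1.19 ± 0.42) and Hspg2 (0.12 ± 0.15). The Nid2 difference was -0.46 (adjusted p = 0.716) without replicate 1 of CAFs alone, and it was called without replicate 2 of CAFs alone (adjusted p = 0.0320) or replicate 1 of 344SQ (adjusted p = 0.0431). Carcinoma markers summed to 14.4 to 35.5 CPM with 344SQ and 7.32 to 11.9 CPM in CAFs alone, and pericyte markers to 44.9 to 54.1 and 23.8 to 35.5 CPM, both without overlap. Their part in these changes was not tested.

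Set directly against 393P, the CAFs with 344SQ had lower levels of all 4 collagen genes. Col15a1 was 7.32-fold lower, Col18a1 4.37-fold, Col4a1 3.12-fold and Col4a2 2.38-fold, and these were the 4 members called, against 4.15% of all genes. With 344SQ, Col4a1 had 173, 217 and 187 CPM, Col4a2 216, 229 and 243 CPM, Col15a1 87.4, 74.0 and 66.2 CPM and Col18a1 67.9, 59.4 and 41.0 CPM. Every one of these values was below every 393P value of the same gene. The log2 differences were -2.87 ± 0.19 for Col15a1 (adjusted p = 1.00e-11), -2.13 ± 0.28 for Col18a1 (6.20e-06), -1.64 ± 0.17 for Col4a1 (1.06e-07) and -1.25 ± 0.16 for Col4a2 (3.22e-06).
The median was -0.28 over the members and 0.0071 over all genes. The ranges of 6 members did not overlap, against 17.9% of all genes. The additional 2 were Lamc1 (lower with 344SQ, adjusted p = 0.316) and Hspg2 (higher, adjusted p = 0.413), neither of them called. Lama4, called in both co-cultures against CAFs alone, differed by -0.16 ± 0.16 between them (adjusted p = 0.744), and Nid1 by -0.19 ± 0.17 (adjusted p = 0.71).

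Related genes gave a mixed picture in the same libraries. Of 12 other basement membrane components tested, 3 were higher and 4 lower with 393P. Of the minor collagen IV chains, Col4a6 and Col4a5 fell where the major ones rose. Col4a6 went from 51.1 ± 9.72 to 7.09 ± 1.10 CPM (SD, n = 3 per group, log2 change -2.83 ± 0.37, adjusted p = 1.49e-06). Col4a5, which pairs with Col4a6 in some basement membranes, went from 43.7 ± 12.9 to 11.1 ± 1.52 CPM (log2 change -1.99 ± 0.32, adjusted p = 4.22e-05). The calcium-binding component Smoc1 fell from 83.6 ± 13.4 to 15.5 ± 4.38 CPM, and the integrin ligand Npnt rose from 7.34 ± 2.86 to 50.9 ± 23.0 CPM. Among other laminin alpha chains, named after their values were seen, Lama2 fell from 62.7 ± 17.8 to 20.2 ± 13.4 CPM (-1.65 ± 0.32, adjusted p = 0.000571) and Lama5 rose (0.68 ± 0.20, adjusted p = 0.0238). With 344SQ none of the 12 was higher and 3 were lower, namely Smoc1 (log2 change -1.84 ± 0.26), the fibulin Fbln2 (-1.08 ± 0.16) and Col4a6 (-2.28 ± 0.35). Against 393P, CAFs with 344SQ had 4 lower, which were Npnt (-2.45 ± 0.39), Fbln2 (-0.89 ± 0.16), agrin (Agrn, -0.85 ± 0.21) and the laminin alpha-5 gene Lama5 (-0.82 ± 0.20).

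Of 20 genes of collagen processing, 2 were higher and 2 lower with 393P. The lysyl hydroxylase Plod2 (-1.17 ± 0.23) and the lysyl oxidase Lox (-1.25 ± 0.26) fell. The collagen IV crosslinking enzymes Loxl2 (0.84 ± 0.23) and Pxdn, peroxidasin, which forms the sulfilimine bonds of collagen IV (0.61 ± 0.19, adjusted p = 0.0291), rose. With 344SQ, Plod2 fell (-1.23 ± 0.23) and was the 1 gene called.
Among 18 receptors, 5 rose and 2 fell with 393P. They included the syndecans Sdc2 (1.66 ± 0.19) and Sdc4 (-1.40 ± 0.20) and the integrin chains Itgb3 (2.05 ± 0.35) and Itgb5 (0.98 ± 0.18). With 344SQ, Sdc2 (0.84 ± 0.20) and the laminin receptor chain Itga6 (1.21 ± 0.36) rose.
Of 16 proteases and inhibitors, 3 rose and 4 fell with 393P. Adamts1, which cleaves proteoglycans, fell from 397 ± 66.6 to 93.5 ± 9.54 CPM and Adamts5 from 76.3 ± 17.6 to 10.8 ± 5.07 CPM, while Adamts4 (1.58 ± 0.36) and the plasminogen activator Plat (1.11 ± 0.20) rose. With 344SQ, Mmp19 rose (0.93 ± 0.18) and Adamts5 fell (-1.18 ± 0.26). Between the co-cultures, Adamts1 was higher with 344SQ by 2.15 ± 0.18 and Adamts5 by 1.69 ± 0.33, whereas Bmp1, the procollagen C-proteinase, was lower by -0.80 ± 0.17 and Plat by -0.91 ± 0.20.

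Knockdown of Zeb1 in the 344SQ cells was the next comparison, and none of the 10 members was called, with 0 members also by DESeq2 and 0 at an unadjusted p under 0.05. The test called 0% of 7801 genes, with 466 at an unadjusted p under 0.05 and 26 called by DESeq2. On simulated counts at this spread, edgeR recovered 1.08% of 2-fold and 7.61% of 4-fold changes over 7304 genes, so changes of these sizes were mostly not detectable. The median log2 difference of the members was -0.10, against -0.015 over all genes.
Values did not overlap for 2 members, against 11.7% of all genes. Col4a2 had 263, 318 and 217 CPM with shCTL and 139, 136 and 159 CPM with shZEB1, a log2 difference of -0.88 ± 0.41 (adjusted p = 0.799). Its partner Col4a1 had 275, 266 and 255 CPM with shCTL and 292, 409 and 254 CPM with shZEB1, which overlap (0.26 ± 0.40). Nid2 had 8.88, 7.88 and 11.6 CPM with shCTL and 13.2, 17.6 and 21.1 CPM with shZEB1, from 10 to 33 counts per library (0.87 ± 0.76).

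Several members varied widely between replicates of 1 group here. Nid1 had 1804, 1453 and 397 CPM with shCTL, and Lama4 had 81.3, 206 and 33.8 CPM. Replicate 3 was the lowest for both. It also had the lowest sum of fibroblast markers, 1632 CPM against 3194 and 5472 CPM, and the highest sum of carcinoma markers of the group, 1533 CPM against 77.9 and 52.8 CPM. With shZEB1 the carcinoma sums were 37.8, 1093 and 480 CPM. No member was called with the log2 carcinoma sum as a covariate, nor without it, so this fit does not show what part carcinoma RNA had. Col15a1 had 113, 37.0 and 47.4 CPM with shCTL and 204, 60.2 and 69.8 CPM with shZEB1. Its highest library, replicate 1 of shZEB1, also had the highest Flt1, at 992 CPM. The part of these other markers in the values was not tested.
The 2 genes of highest level in each related list were not called either: Fbln2 (0.52 ± 0.41) and Sparc (0.80 ± 0.46), Hsp90b1 (0.55 ± 0.40) and Serpinh1 (0.43 ± 0.42), Tln1 (0.13 ± 0.45) and Sdc4 (-0.01 ± 0.45), and the inhibitors Timp3 (1.45 ± 0.50) and Timp2 (0.59 ± 0.45). All 4 lists had 0 genes called, of 18, 20, 21 and 19 tested.

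Across a membrane, Col4a1 and Col4a2 changed in the other direction from that in aggregates with 393P. In Boyden chambers with 393P, Col15a1 rose 2.15-fold from a very low level, and Col4a1, Col4a2, Lamc1, Nid1, Nid2 and Hspg2 were 1.12-fold to 1.43-fold lower. The 7 of 10 members compare with 15.6% of 14040 genes called, and the 7 members whose values did not overlap with 12.4% of all genes. The median log2 change was -0.31 over the members and 0.00065 over all genes.

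**Figure D2:**
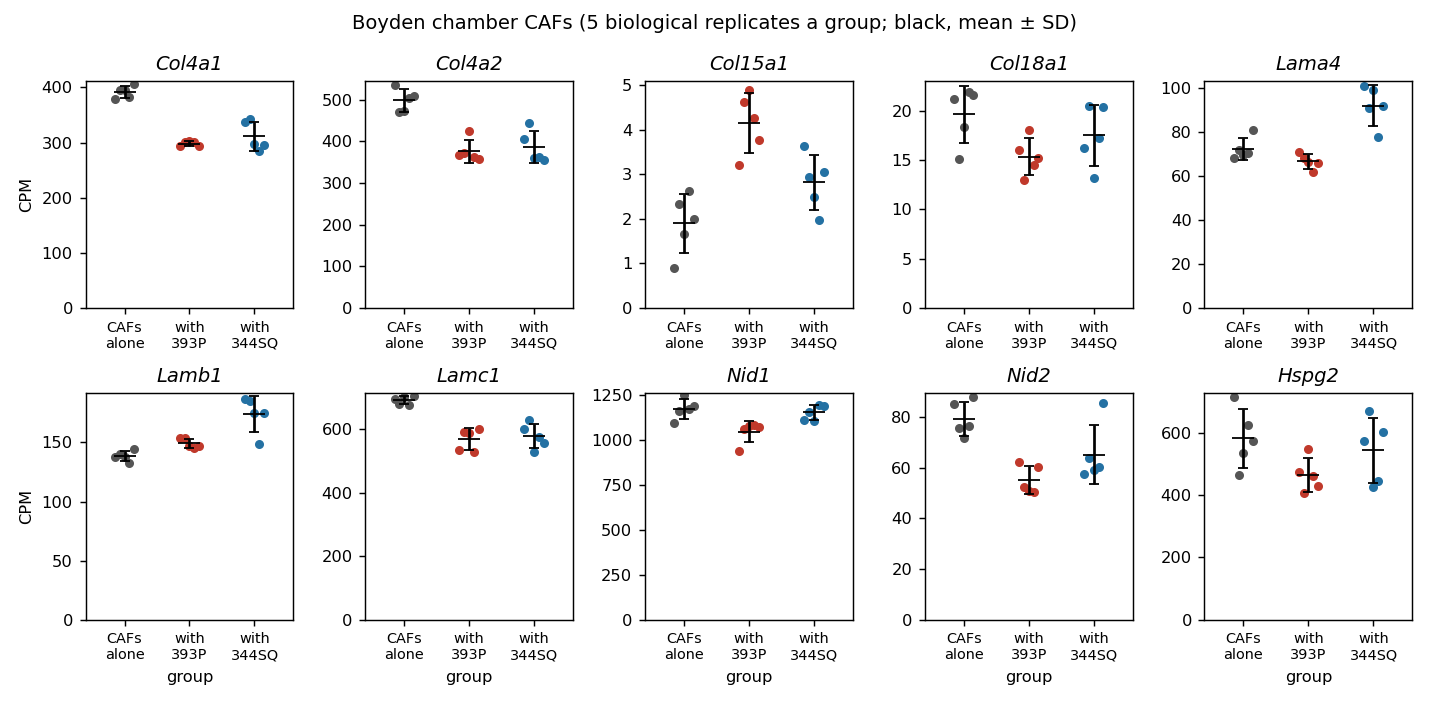
TMM-scaled CPM of the 10 genes in Boyden chamber CAFs, each point 1 biological replicate (3 technical libraries summed), with the mean and SD in black and every axis starting at 0. Col4a1 and Col4a2 are lower in both co-cultures than in CAFs alone, Lama4 and Lamb1 are highest with 344SQ, and Col15a1 lies below 5 CPM throughout.

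Col4a1 had 379, 395, 396, 382 and 406 CPM in CAFs alone, 294, 300, 302, 300 and 293 CPM with 393P, and 337, 343, 297, 285 and 296 CPM with 344SQ. No co-culture value reached the lowest control. The log2 change was -0.40 ± 0.06 with 393P (SE, n = 5 per group; adjusted p = 2.91e-05) and -0.33 ± 0.06 with 344SQ (adjusted p = 0.000158). Col4a2 had 536, 470, 472, 505 and 509 CPM alone, 367, 371, 425, 363 and 357 CPM with 393P and 406, 444, 361, 361 and 356 CPM with 344SQ. Its groups did not overlap with the controls either, with log2 changes of -0.40 ± 0.07 (adjusted p = 0.000174) and -0.37 ± 0.07 (adjusted p = 0.000320).

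Col15a1 had low counts here, 6 to 31 counts per summed library. It had 0.894, 2.33, 1.65, 2.63 and 2.0 CPM in CAFs alone and 3.21, 4.64, 4.90, 4.26 and 3.77 CPM with 393P, without overlap, a log2 change of 1.10 ± 0.23 (adjusted p = 0.00207). With 344SQ it had 3.63, 2.95, 2.5, 1.97 and 3.05 CPM, overlapping the controls (0.56 ± 0.26, adjusted p = 0.162). Col18a1 had 13.0 to 21.9 CPM over all groups and was not called with 393P (-0.35 ± 0.12, adjusted p = 0.0524) or 344SQ (-0.16 ± 0.13, adjusted p = 0.430). It was called with 393P when replicate 2 of CAFs alone (adjusted p = 0.0143) or replicate 3 of 393P (adjusted p = 0.0321) was left out.

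Of the laminin chains, Lama4 was called between the lines without overlap in this format, Lamb1 was called with overlap, and Lamc1 was not called. Lama4 had 68.4, 72.1, 69.6, 70.5 and 80.7 CPM in CAFs alone, 70.9, 68.4, 66.4, 62.1 and 65.8 CPM with 393P and 101, 91.1, 99.2, 77.6 and 91.7 CPM with 344SQ. It rose with 344SQ by 0.35 ± 0.07 (adjusted p = 0.00105), although 1 control lay within the 344SQ range, and differed by -0.12 ± 0.07 with 393P (adjusted p = 0.298). Lamb1 had 133 to 144 CPM alone, 145 to 153 CPM with 393P and 149 to 187 CPM with 344SQ, and rose with 344SQ by 0.33 ± 0.06 (adjusted p = 0.000274). Lamc1 fell with both lines, by -0.28 ± 0.06 with 393P and -0.26 ± 0.06 with 344SQ, from 677 to 707 CPM in CAFs alone to 527 to 601 and 530 to 629 CPM.

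The nidogens and perlecan fell slightly with 393P. Nid2 went from 71.9 to 87.8 CPM alone to 50.5 to 62.3 CPM with 393P, a log2 change of -0.52 ± 0.09 (adjusted p = 0.000378). With 344SQ it had 57.6, 63.9, 59.0, 60.3 and 85.6 CPM, a change of -0.29 ± 0.09 (adjusted p = 0.0370). Replicate 5 alone lay in the control range; without it the change was -0.40 ± 0.08 (adjusted p = 0.00134), while leaving out any of replicates 1, 4 and 5 of CAFs alone or 1, 3 and 4 of 344SQ ended the call (adjusted p = 0.0515 to 0.117). Nid1 with 393P (-0.17 ± 0.06, adjusted p = 0.0431) and Hspg2 with 393P (-0.33 ± 0.11, adjusted p = 0.0456) lay near the threshold. Nid1 lost its call without any of replicates 2 to 5 of CAFs alone or 1, 2 and 5 of 393P, and Hspg2 without any of replicates 1, 4 and 5 of CAFs alone or 1, 2, 4 and 5 of 393P. With 344SQ, Nid1 (-0.02 ± 0.06) and Hspg2 (-0.10 ± 0.11) were not called.

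With 344SQ in Boyden chambers 2 members rose and 4 fell, against 14.9% of genes called; values did not overlap for 4 members, against 9.93% of all genes. The median log2 change was -0.13 over the members and 0.0064 over all genes. Between the lines, Lama4 was higher with 344SQ by 0.47 ± 0.07 (adjusted p = 0.000121) and Lamb1 by 0.22 ± 0.06 (adjusted p = 0.0303). These 2 members compare with 3.88% of all genes called, and the 2 that did not overlap, Lama4 and Nid1, with 4.46%. Nid1 was not called (0.14 ± 0.06, adjusted p = 0.184). The Lamb1 call was lost without any of replicates 1, 2, 3 and 5 of 344SQ or 3, 4 and 5 of 393P (adjusted p = 0.0570 to 0.125). The 3 comparisons share groups, so they are not independent of each other.
Fibroblast markers summed to 8644 to 9403 CPM in CAFs alone, 7425 to 8010 CPM with 393P and 6866 to 7608 CPM with 344SQ. The controls did not overlap with either co-culture. Of 10 tested, 5 were called lower and 1 higher with each line, against 15.6% of all genes called with 393P and 14.9% with 344SQ. Carcinoma markers summed to 18.5 to 31.4 CPM in CAFs alone, 11.1 to 85.2 CPM with 393P and 23.4 to 47.9 CPM with 344SQ. Endothelial markers summed to 83.9 to 97.3, 59.6 to 68.9 and 78.5 to 84.3 CPM in the same order. Flt1 made up 80.1% to 82.7%, 78.8% to 87.0% and 85.2% to 90.2% of the endothelial sums. The rest of that list summed to 14.9 to 19.3, 8.95 to 12.6 and 8.22 to 11.8 CPM. The part of all these markers in these results was not tested. Depth was the lowest in the 344SQ group, 4182944 to 5857925 counts per replicate, against 6734110 to 8542262 in CAFs alone. With the first technical library of each replicate alone, 2 members were called with 344SQ and 1 with 393P.

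Related genes were counted in the same way in Boyden chambers. Of 21 other basement membrane components tested, 9 were lower and 0 higher with 344SQ, and 9 and 0 with 393P. The collagen-binding glycoprotein Sparc fell from 4154 ± 163 to 3080 ± 222 CPM with 344SQ (log2 change -0.43 ± 0.06) and to 3158 ± 161 CPM with 393P (-0.40 ± 0.06). Fras1 (-1.02 ± 0.14 and -0.87 ± 0.13) and Lama5 (-0.44 ± 0.08 and -0.39 ± 0.07) fell with both. Smoc1 also fell with both (-0.64 ± 0.08 and -0.40 ± 0.08). Npnt fell with 393P by -0.50 ± 0.07 and was not called with 344SQ (-0.18 ± 0.07, adjusted p = 0.0988).
Of 21 processing genes, 2 rose and 6 fell with 344SQ, and 0 rose and 5 fell with 393P. The prolyl hydroxylase P4ha2 rose from 31.5 ± 3.63 to 58.8 ± 1.15 CPM with 344SQ (0.90 ± 0.08) and Plod1 by 0.41 ± 0.09, while P4ha3 (-0.54 ± 0.09) and Plod3 (-0.28 ± 0.07) fell. With 393P, Plod3 (-0.36 ± 0.06) and Lox (-0.41 ± 0.08) fell.
Of 22 receptors, 3 rose and 7 fell with 344SQ, and 3 rose and 6 fell with 393P. The collagen IV and laminin receptor chain Itga1 fell from 32.4 ± 3.41 CPM to 14.5 ± 2.42 with 344SQ and 16.6 ± 2.5 with 393P, and the collagen receptor Ddr1 and dystroglycan (Dag1) also fell with both lines, whereas Sdc4 rose with both. No receptor was called between the lines by edgeR, with Itgav (-0.03 ± 0.08) and Itgb1 (0.06 ± 0.07) the most abundant.
Of 19 proteases and inhibitors, 6 rose and 7 fell with 344SQ, and 4 rose and 7 fell with 393P. The collagenase Mmp13 rose from 4.49 ± 0.757 to 41.9 ± 2.78 CPM with 344SQ and 10.7 ± 1.83 CPM with 393P, and Mmp3, which cleaves laminin, nidogen and collagen IV, from 12.4 ± 2.21 to 75.4 ± 14.3 and 39.5 ± 4.28 CPM. The inhibitor Timp3 fell with both (-0.86 ± 0.06 and -0.58 ± 0.06), and Timp2 fell with 344SQ (-0.59 ± 0.05). Mmp13 was higher with 344SQ than with 393P by 1.97 ± 0.11 and Mmp3 by 0.92 ± 0.11.

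A joint fit of the aggregate and Boyden tables tested whether the change against CAFs alone differed between the formats. For 393P, 6 of 10 members differed, against 8.98% of 15193 genes, and for 344SQ 2 of 10, against 4.73%. The 393P change was larger in the aggregates by 2.73 ± 0.31 (log2) for Col18a1, 2.38 ± 0.16 for Col4a1, 2.24 ± 0.29 for Col15a1, 1.80 ± 0.15 for Col4a2 and 1.14 ± 0.15 for Lama4. It was lower for Nid1, by -0.62 ± 0.15. Adjusted p ran from 1.81e-15 for Col4a1 to 0.00397 for Nid1. The joint fit estimated the spread over both tables (biological coefficient of variation 9.50%, against 16.2% in the aggregates alone). For Col4a1 the SE of the difference, 0.157, was below the 0.174 of the aggregate change alone. The SE and adjusted p of the format differences, for 393P and for 344SQ, may therefore be too small.
For 344SQ the change was higher in the aggregates for Col4a1, by 0.63 ± 0.17 (adjusted p = 0.0154), and lower for Nid1, by -0.99 ± 0.15 (adjusted p = 1.29e-05). The Col4a1 difference lost its call without replicate 1 of CAFs alone or replicate 2 of 344SQ in the aggregates (adjusted p = 0.0693 and 0.0713). Lama4 (0.48 ± 0.15, adjusted p = 0.0597) and Col4a2 (0.48 ± 0.15, adjusted p = 0.0639) missed the threshold. Lama4 was called without those same libraries, and Col4a2 without replicate 2 of CAFs alone in the aggregates or replicate 2 of 344SQ in the Boyden chamber. The formats also differed in the form of culture, in depth and in the shares of mitochondrial and rRNA-like counts. None of these can be told apart from contact itself.

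**Figure D3:**
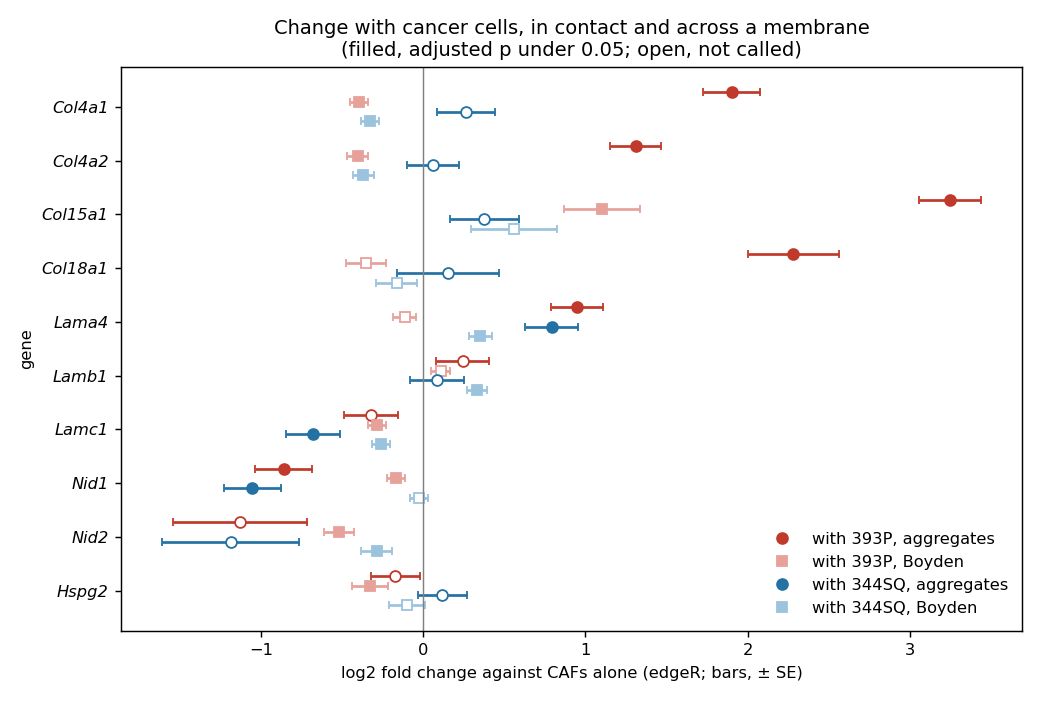
Log2 fold change against CAFs alone (x axis, edgeR, bars ± SE) for each gene with 393P (red) or 344SQ (blue), in aggregates (circles) and Boyden chambers (squares); filled symbols had an adjusted p under 0.05. Col4a1 and Col4a2 lie at 1.90 and 1.31 with 393P in aggregates and at -0.40 for both with 393P in Boyden chambers.

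Among the related lists the 393P change differed between formats for 5 higher and 4 lower of 23 other components, led by Npnt (3.39 ± 0.35), Smoc1 (-1.91 ± 0.25), Col4a6 (-2.38 ± 0.34) and Sparc (0.92 ± 0.14). It differed for 4 higher and 2 lower of 21 processing genes, 8 higher and 1 lower of 23 receptors and 5 higher and 4 lower of 20 proteases and inhibitors. Mmp3 (-4.28 ± 0.64) and Mmp13, the latter by -3.00 ± 0.52, were lower in the aggregate change. For 344SQ the counts were 0 and 3, 0 and 3, 3 and 1, and 4 and 2 of the same numbers tested.

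Scaled by exon length, the order of the genes also shifted. Nid1 was the highest of the 10 in all 8 groups, from 139 CPM per kb with shZEB1 to 419 CPM per kb in the aggregates of CAFs alone, although its range overlapped that of Hspg2 in both shRNA groups. In aggregates of CAFs alone the next were Lamc1 (80.8 ± 9.46, SD) and Hspg2 (74.2 ± 10.4), whose ranges overlapped, then Col4a2 (33.3 ± 4.03), Lamb1 (22.1 ± 2.02) and Col4a1 (21.5 ± 2.32 CPM per kb), the latter pair overlapping. Lama4 (10.8), Col15a1 (9.37), Nid2 (7.22) and Col18a1 (7.10) closed the order, each overlapping its neighbour. With 393P, Col15a1 came second at 87.5 ± 4.11 CPM per kb, followed by Col4a2 (82.4 ± 11.6), Col4a1 (80.0 ± 18.6), Hspg2 (65.8 ± 2.83) and Lamc1 (64.6 ± 9.17), and each of these overlapped the next. With 344SQ, Nid1 was followed by Hspg2 (80.5), Lamc1 (50.3), Col4a2 (34.7) and Col4a1 (25.7 CPM per kb), and no range overlapped the next among these.
In the Boyden groups Lamc1 was second (83.7, 68.8 and 69.9 CPM per kb in CAFs alone, with 393P and with 344SQ) and Col4a2 came next. The ranges of Lamc1 and Col4a2 overlapped with 393P and with 344SQ, but not in CAFs alone. Col18a1 (2.79, 2.18 and 2.49) and Col15a1 (0.299, 0.654 and 0.444) were last in that order in each. The levels of separate tables were normalized separately, so the difference between formats is given without a test.

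**Figure D4:**
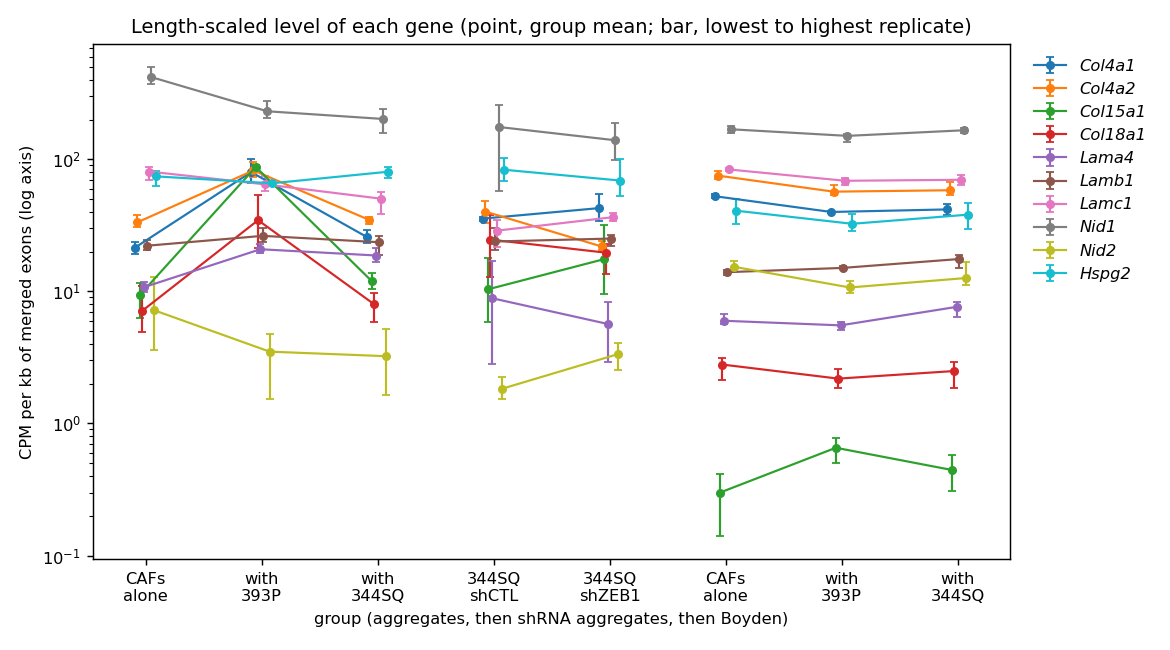
Mean level per kb of merged exons (log axis) of the 10 genes in the 8 groups, with bars from the lowest to the highest replicate and lines joining groups of the same table. Nid1 is on top throughout, and Col15a1 goes from 9.37 to 87.5 CPM per kb between aggregates of CAFs alone and with 393P and stays below 1 in the Boyden chamber.

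Ratios of counts inside a library compare partner chains without scaling between libraries. In 35 exact permutation tests (2-sided) none had an adjusted p under 0.05; 3 against 3 cannot go below 0.1 unadjusted. The Col4a2 to Col4a1 ratio was 1.41, 1.57 and 1.18 in aggregates of CAFs alone, 0.985, 0.838 and 0.952 with 393P and 1.25, 1.06 and 1.31 with 344SQ. It was thus lower in each 393P library than in any other library of that table (exact p = 0.1 against CAFs alone). With shCTL it was 0.958, 1.19 and 0.848, and with shZEB1 0.476, 0.333 and 0.6247, again without overlap (exact p = 0.1). In the Boyden groups it spanned 1.19 to 1.41, 1.21 to 1.40 and 1.2 to 1.3, and the ranges overlapped.
The Lama4 to Lamc1 ratio was 0.170 to 0.247 in aggregates of CAFs alone, 0.447 to 0.489 with 393P and 0.467 to 0.634 with 344SQ. In the Boyden chamber it was 0.0983 to 0.114, 0.110 to 0.132 and 0.135 to 0.187 in the same order, and the 344SQ values were above all others (exact p = 0.00794 and adjusted p = 0.0556 against CAFs alone and against 393P). The Lamb1 to Lamc1 ratio was 0.196 to 0.206 in Boyden CAFs alone, 0.245 to 0.287 with 393P and 0.259 to 0.331 with 344SQ, above all controls in 5 of 5 replicates with each line (exact p = 0.00794, adjusted p = 0.0556). The Col18a1 to Col15a1 ratio was 6.47 to 23.7 in Boyden CAFs alone and 2.79 to 5.0 with 393P, without overlap (exact p = 0.00794, adjusted p = 0.0556). The Nid2 to Nid1 ratio overlapped between the groups in all 7 comparisons and had a smallest exact p of 0.0317, with 393P against CAFs alone in the Boyden chamber (adjusted p = 0.139).

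**Figure D5:**
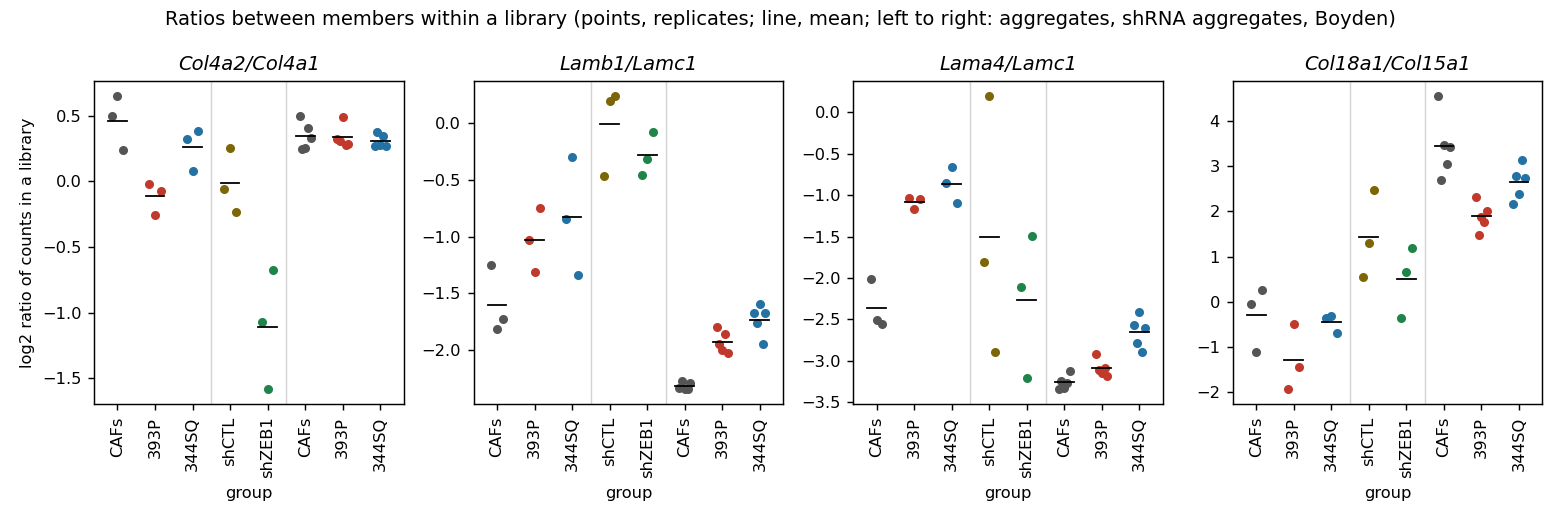
Log2 ratio of counts between partner genes within each library (points) with the group mean (line), for aggregates, shRNA aggregates and Boyden chambers from left to right. The Col4a2 to Col4a1 points of 393P aggregates lie below those of CAFs alone, and the Boyden Lamb1 to Lamc1 and Lama4 to Lamc1 points of 344SQ lie above those of CAFs alone.

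Likeness of pattern was measured over the 8 group means (log2 CPM, centred within each table) as the root mean square difference, for 6815 genes tested in all 3 tables. The 5 genes nearest to Col4a1 were Kif26b (0.13), Plekhg2 (0.14), Prr5 (0.15), the platelet-derived growth factor receptor gene Pdgfrb (0.15) and Col18a1 (0.17). Its partner Col4a2 ranked 84th (0.31). Nearest to Col15a1 were Ano1 (0.23), the endothelin receptor gene Ednra (0.26), Notch3 (0.30), Col5a3 (0.33) and Flt1 (0.34), with Col18a1 at rank 18 and Col4a1 at rank 23. Nearest to Nid1 were Rrp36 (0.06), Zfp768 (0.09), C330006A16Rik (0.09), Pacs1 (0.09) and Glod4 (0.10), and of the members Lamc1 came closest, at rank 221 (0.19). Each profile rests on group means of libraries that all genes share, so the measure is a description without a test.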

How the data were processed

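Gene counts of 60 libraries in 3 tables were used as deposited; per the submitters' processing notes the authors used STAR, HTSeq and mm10, without versions. The authors' annotation and strand setting: not given in the sources used here. Each table listed 48440 genes, with 0 unmatched sample columns and 0 rows naming no gene. The 3 technical libraries of each Boyden replicate, of 289848 to 3785291 counts, were summed. The members and all gene lists were chosen with earlier results of these data known.

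Genes were filtered with filterByExpr, scaled by TMM and tested with edgeR 4.0.16 (R 4.3.3), quasi-likelihood, with all groups of a table in 1 fit and p-values adjusted by Benjamini and Hochberg over 7992, 7801 and 14040 genes. A joint fit of the aggregate and Boyden tables (15193 genes) tested format differences. SE is the absolute log2 fold change divided by the root of F. Adjusted p-values in the text are from these fits. Ratios were tested with SciPy 1.17.1. Lengths are merged exons of GENCODE M21. Alternatives were DESeq2 1.42.0, other scaling, no count filter, the replicate number as a block, the compared groups alone, 1 technical library, a carcinoma marker covariate, no mitochondrial or rRNA-like genes, and each replicate left out. On simulated counts, 49.5% of 2-fold and 93.7% of 4-fold changes were recovered for 393P aggregates (7685 genes). For 344SQ in Boyden chambers 93% and 99% were recovered (13844 genes). For the 393P format difference it was 21.5% and 47.4% (14638 genes), so simulated differences of these sizes were often missed over these genes. In each simulation the changed genes were drawn at random from all genes tested, so recovery for the members was not measured.

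All members were described. From each related list up to 4 called genes with the smallest p were named per comparison, or the 2 of highest level where none was called. Protein sequences named in the design were not used here.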

Additional observations from a re-analysis of the deposited data

Results flagged for a closer look

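In 3 of 30 groups of 5 Boyden replicates, 1 library stood apart from the other 4, where chance gives about 1 in 20. Col4a2 had 425 CPM in replicate 3 with 393P, against 357 to 371 CPM in the others. Without it the 393P change was -0.46 ± 0.07 on the log2 scale (edgeR, adjusted p = 7.73e-05). Nid1 had 938 CPM in replicate 1 with 393P, against 1058 to 1080 CPM, and without it the 393P change was -0.13 ± 0.06 and not called (adjusted p = 0.139). Nid2 had 85.6 CPM in replicate 5 with 344SQ, against 57.6 to 63.9 CPM, and without it the 344SQ change was -0.40 ± 0.08 (adjusted p = 0.00134).

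The log2 change against CAFs alone differed between aggregates and Boyden chambers, by the interaction term of the joint fit, for 6 members with 393P. The differences were 2.38 for Col4a1, 1.80 for Col4a2, 2.24 for Col15a1, 2.73 for Col18a1, 1.14 for Lama4 and -0.62 for Nid1. With 344SQ they were 0.63 for Col4a1 and -0.99 for Nid1.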

How the results depend on the processing

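Of 90 member values over all comparisons, 36 were called; 22 of these were called under every alternative run, 14 lost the call under at least 1 and 0 reversed. Of the 54 not called, 5 were called under an alternative and 17 changed sign. With the first technical library alone, members called in Boyden chambers numbered 2 for 344SQ (6 with all libraries), 1 for 393P (7) and 0 between the lines (2), and all genes called 500, 609 and 73 (2087, 2195 and 545). Without the count filter 1 member was called between the lines. Leaving out 1 replicate gave 1 to 2 members there. Genes called for shZEB1 were 0 by edgeR, 26 by DESeq2, 90 without the filter and 1 with the block; for 344SQ aggregates they were 284 without replicate 3 of CAFs alone (467 with it).

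Sign changes were of values not called. They were Nid1 for shZEB1 with the carcinoma covariate (0.0602) and, with the first technical library, Nid1 for 344SQ in Boyden chambers (0.0340) and, between the lines, Col4a1 (-0.0173), Col4a2 (-0.0713), Lamc1 (-0.0742) and Nid2 (-0.216). Lamc1 changed sign between the lines without the filter (-0.00129), and in the 393P format difference with DESeq2-type scaling (-0.00488) or without mitochondrial and rRNA-like genes (-0.0163). Leaving out 1 replicate gave, for 344SQ aggregates, Col4a2 -0.0134 to 0.153, Col18a1 -0.0469 to 0.603 and Hspg2 -0.00823 to 0.190, and for 344SQ against 393P aggregates Nid2 -0.557 to 0.238. For shZEB1 it gave Col15a1 -0.0270 to 1.44, Col18a1 -0.615 to 0.124, Lama4 -1.05 to 0.252, Lamb1 -0.00758 to 0.276 and Nid1 -0.749 to 0.0738. Between the lines in Boyden chambers it gave Col4a2 -0.0210 to 0.0899 and Lamc1 -0.00768 to 0.0497. For the format difference it gave, with 393P, Lamc1 -0.100 to 0.129 and Nid2 -0.907 to 0.196, and, with 344SQ, Col15a1 -0.365 to 0.0309. The causes were not tested.

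With the replicate number as a block, 7, 4, 4, 0, 6, 6, 2, 6 and 2 members were called, against 6, 3, 4, 0, 6, 7, 2, 6 and 2 without it. The block added Nid2 in both aggregate comparisons with CAFs alone (adjusted p = 0.0317 and 0.0285, edgeR) and ended the call of Hspg2 for 393P in Boyden chambers (adjusted p = 0.0871). Same-numbered samples did not deviate together (correlations from -0.303 to 0.265), and in no comparison did every sample correlate best with its own number, so the numbers were not taken as pairs.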
